A study of Mus musculus with 2 samples.

Results

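The genes described here encode PGC-1 coactivators, the nuclear receptors they work with, and a pair of factors that carry the programme to mitochondria. They were chosen by name: the coactivators Ppargc1a and Ppargc1b, the estrogen-related receptors Esrra and Esrrg, the peroxisome proliferator-activated receptors Ppara, Ppard and Pparg, the retinoid X receptor Rxrg, and Nrf1 and Tfam. They are 10 of the 55536 genes listed in the deposited gene tables, and all 10 had enough reads to be tested. The samples were 2 libraries of total RNA from gastrocnemius, a mostly fast muscle of the calf. The donors were male B6CASTF1/J mice, 2 months old, which are F1 hybrids between a laboratory and a wild-derived strain, and no allele or treatment is given for either library. The labels number the libraries as biological replicates 1 and 2 and give each its own tissue sample, but they share a donor entry, and nothing states that the tissue came from separate animals. There is 1 group, so the design holds no contrast between conditions. What could be measured is the level of each gene, its transcripts, and how far the libraries differed.

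PGC-1 coactivators do not bind DNA themselves. They dock on nuclear receptors such as ERRs and PPARs and raise transcription of genes for oxidative phosphorylation, the citric acid cycle and fatty acid oxidation. In skeletal muscle, PGC-1alpha is known as a regulator that responds to exercise and is more abundant in slow and oxidative fibres, and PPARs pair with RXRs on DNA and respond to fatty acids. NRF1 (nuclear respiratory factor 1) drives nuclear genes for the respiratory chain, and TFAM, encoded by a target of it, packages and transcribes mitochondrial DNA.

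Reads assigned to genes totalled 42724520 in replicate 1 and 42280091 in replicate 2. The fibre genes Acta1, Ckm, Ttn and Mylpf summed to 52968 TPM (a level corrected for transcript length and library size) in replicate 1 and to 43813 TPM in replicate 2. They define skeletal muscle fibres, the labelled tissue. Of the liver markers, Apoa1 and Ttr were listed at 0 in both libraries, and Alb had 0 and 1 reads. Of the heart markers, Nppa, Nppb and Myl7 were at 0 in both libraries and Tnni3 had 3 and 2 reads. The heart marker Myh6 was read in both libraries and is described below. All 10 slow fibre markers were called higher in replicate 2, that is, with an adjusted p under 0.05 and a fold of at least 1.5. Their summed level was 1425 TPM in replicate 1 against 3583 TPM in replicate 2, and their median log2 ratio was 1.36. None of 10 fast fibre markers was called, and their summed level was 78126 TPM in replicate 1 against 61175 TPM in replicate 2. Their log2 ratios ran from -0.52 to -0.19, short of the fold required. At the adjusted p alone all 10 passed towards replicate 1, as did 11.5% of all genes tested. With the fold, 4.1% of all genes tested were called higher in replicate 2 and 2.7% higher in replicate 1. In bulk tissue, a change in the number of cells of a type and a change in RNA per cell cannot be told apart. This difference in fibre markers accompanies every comparison of the libraries below, and its part in each was not tested.

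Among the coactivators, Ppargc1a (PGC-1alpha; chr5:51454250-51567726, mm10, minus strand) was read at 13.5 TPM in replicate 1 and at 22.0 TPM in replicate 2, a mean of 17.7 ± 5.95 TPM (SD, n = 2). Its relative Ppargc1b (PGC-1beta; chr18:61298136-61400431) was at 4.03 TPM in replicate 1 and at 7.17 TPM in replicate 2, a mean of 5.60 ± 2.22 TPM (SD, n = 2). Both coactivators were higher in replicate 2. The level of Ppargc1a exceeded that of Ppargc1b 3.36-fold in replicate 1 and 3.06-fold in replicate 2. In the second kind of deposited table, which counted the same samples per transcript, this ratio was 4.61 and 3.28. Levels in the first kind of table include short transcripts with few reads, so the size of the ratio depends on them. Noncoding Ppargc1b-203, of 366 bases, gave 1.38 and 1.11 TPM there from 12.66 and 10.15 reads. Incomplete Ppargc1a-202, of 488 bases, gave 2.98 and 6.39 TPM from 39.8 and 85.4 reads.

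Of the ERRs, orphan receptors related to the estrogen receptors, Esrra (ERRalpha; chr19:6910977-6921813) had the highest level of the 10 genes. It was at 31.4 TPM in replicate 1 and at 40.8 TPM in replicate 2, a mean of 36.1 ± 6.66 TPM (SD, n = 2). Esrrg (ERRgamma; chr1:187608791-188214885), known in mouse muscle for driving oxidative capacity and blood supply, was at 8.28 TPM in replicate 1 and at 17.6 TPM in replicate 2, a mean of 12.9 ± 6.59 TPM (SD, n = 2). Esrra was above Esrrg in both libraries, by 3.79-fold in replicate 1 and 2.32-fold in replicate 2. By scaled counts, Esrrg was 2.14-fold and Esrra 1.34-fold higher in replicate 2.

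Of the PPARs, the lipid-sensing receptors, Ppara (chr15:85734983-85802819) is known for control of fatty acid oxidation. It was at 6.03 TPM in replicate 1 and at 15.3 TPM in replicate 2, a mean of 10.7 ± 6.56 TPM (SD, n = 2). Ppard (chr17:28232700-28301474), which in mouse muscle promotes oxidative fibres, was at 11.4 TPM in replicate 1 and at 11.8 TPM in replicate 2, a mean of 11.6 ± 0.276 TPM (SD, n = 2). The order of these receptors therefore turned between the libraries. Ppard was 1.89-fold above Ppara in replicate 1 and 0.771-fold of it in replicate 2, and the second tables gave 1.99 and 0.856. Pparg (chr6:115360951-115490399), the fat cell receptor, was the lowest of the 10 at 0.52 TPM in replicate 1 and at 1.08 TPM in replicate 2, from 28 and 49 reads.

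Rxrg (RXRgamma; chr1:167598384-167639623), a partner of PPARs and thyroid hormone receptors, was at 22.9 TPM in replicate 1 and at 19.7 TPM in replicate 2, a mean of 21.3 ± 2.25 TPM (SD, n = 2). Its level was lower in replicate 2 in both kinds of table, which gave 31.0 and 25.8 TPM in the second. Nrf1 (chr6:30047988-30153458) was at 4.24 TPM in replicate 1 and at 4.36 TPM in replicate 2, a mean of 4.30 ± 0.0849 TPM (SD, n = 2). Tfam (chr10:71225464-71238280) was at 17.5 TPM in replicate 1 and at 19.2 TPM in replicate 2, a mean of 18.3 ± 1.26 TPM (SD, n = 2). In the first tables Nrf1 and Tfam thus differed little between the libraries, with Tfam above Nrf1 4.12-fold in replicate 1 and 4.41-fold in replicate 2. In the second tables Nrf1 was at 8.88 TPM and 8.00 TPM. There Tfam was at 23.8 TPM and 31.5 TPM, a wider difference by TPM, and the ratio of Tfam to Nrf1 was 2.68 and 3.94. Short transcripts with few reads carried that rise. Tfam-204, noncoding with 596 bases, was at 0 and 6.41 TPM there, and Tfam-202, of 779 bases, at 0.21 and 4.45 TPM. Tfam-201 was at 7.93 and 7.78 TPM, and Tfam-203 went the other way, from 15.7 to 12.9 TPM. By counts, the log2 ratio of Tfam was at most 0.24 under every processing tried, the second tables among them.

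By mean TPM the order was Esrra, Rxrg, Tfam, Ppargc1a, Esrrg, Ppard, Ppara, Ppargc1b, Nrf1 and Pparg. Esrra stood above Rxrg and Nrf1 above Pparg without overlap of the library values in both kinds of table. Rxrg stood above Tfam in the first tables by a small gap, its lower value being 19.7 TPM against 19.2 TPM for the higher value of Tfam. In the second tables Rxrg was at 31.0 and 25.8 TPM and Tfam at 23.8 and 31.5 TPM, which overlap. From Rxrg down to Nrf1, each gene overlapped its neighbour in at least 1 kind of table, so the order of neighbours there is not settled. Genes further apart in that range can be separate. Rxrg, for example, was above Nrf1 in both libraries and both kinds of table. The 10 genes summed to 119.7 TPM in replicate 1 and to 159 TPM in replicate 2. The second tables gave higher levels, with sums of 178.1 TPM and 232.7 TPM.

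**Figure D1:**
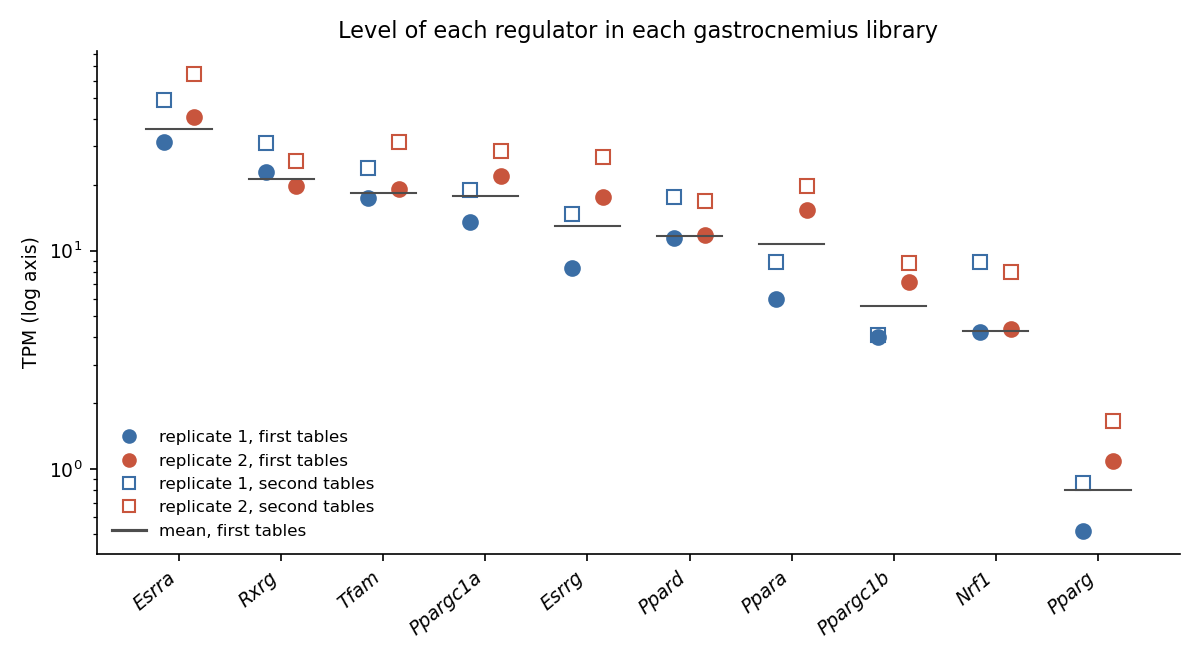
Level of each of the 10 genes in TPM (vertical log axis), by gene along the horizontal axis. Filled circles are the first tables and open squares the second tables, blue for replicate 1 and red for replicate 2, and lines are means of the first tables (n = 2). Ppara, Esrrg and Ppargc1b are wide apart between the libraries, and Ppard and Nrf1 lie close together.

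Each gene was compared between the libraries with the exact conditional binomial test (two-sided) on its reads, with Benjamini-Hochberg adjustment across the 14827 genes that were tested. A gene was called at an adjusted p under 0.05 with a fold of at least 1.5. The test covers counting error between these libraries only and has no replicate check. By this rule 4 of the 10 genes were called higher in replicate 2 and 0 in replicate 1. Of all genes tested, 6.8% were called, 4.1% higher in replicate 2 and 2.7% higher in replicate 1. Among the 6754 genes with at least as many reads as Nrf1 (697 in sum), 3.32% were called higher in replicate 2. By the adjusted p alone, whatever the fold, 7 of the 10 passed, 6 of them higher in replicate 2 and 1 higher in replicate 1. By that rule 25.8% of all genes passed, 14.3% higher in replicate 2 and 11.5% higher in replicate 1. The median log2 ratio (replicate 2 over replicate 1) was 0.56 over the 10 genes and 0.0013 over all genes tested.

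The called genes were both coactivators, 1 ERR and 1 PPAR. Ppara had 590 reads in replicate 1 and 1492 in replicate 2, a 2.61-fold difference with a log2 ratio of 1.39 (95% interval 1.25 to 1.53; adjusted p = 1.57e-94, exact test). Among all genes tested, 153 had a ratio at or above that of Ppara. Ppargc1b had 337 and 750 reads, a log2 ratio of 1.20 (1.02 to 1.39; adjusted p = 3.24e-38, exact test). Esrrg had 1319 and 2728 reads, a log2 ratio of 1.10 (1.00 to 1.19; adjusted p = 2.14e-119, exact test). Ppargc1a had 1746 and 2730 reads, a log2 ratio of 0.69 (0.61 to 0.78; adjusted p = 4.68e-55, exact test). These genes sit in the same direction as the slow fibre markers, whose ratios ran from 1.16 to 2.36 on the log2 scale.

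The other 6 genes were not called. Esrra differed beyond counting error but by less than the fold required, with a log2 ratio of 0.42 (0.34 to 0.50; adjusted p = 7.94e-24, exact test). Tfam had a log2 ratio of 0.19 (0.06 to 0.32; adjusted p = 0.0169, exact test) and Rxrg of -0.18 (-0.30 to -0.06; adjusted p = 0.0145, exact test). For Ppard the log2 ratio was 0.03 with an interval from -0.09 to 0.15, and the adjusted p was 0.844 in the exact test. Nrf1 had 351 and 346 reads and a log2 ratio of 0.03 (adjusted p = 0.942, exact test). For Pparg the interval ran from 0.16 to 1.58 around a log2 ratio of 0.85, and the adjusted p of 0.056 in the exact test missed the threshold. With so few reads, its difference was not settled at this depth.

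**Figure D2:**
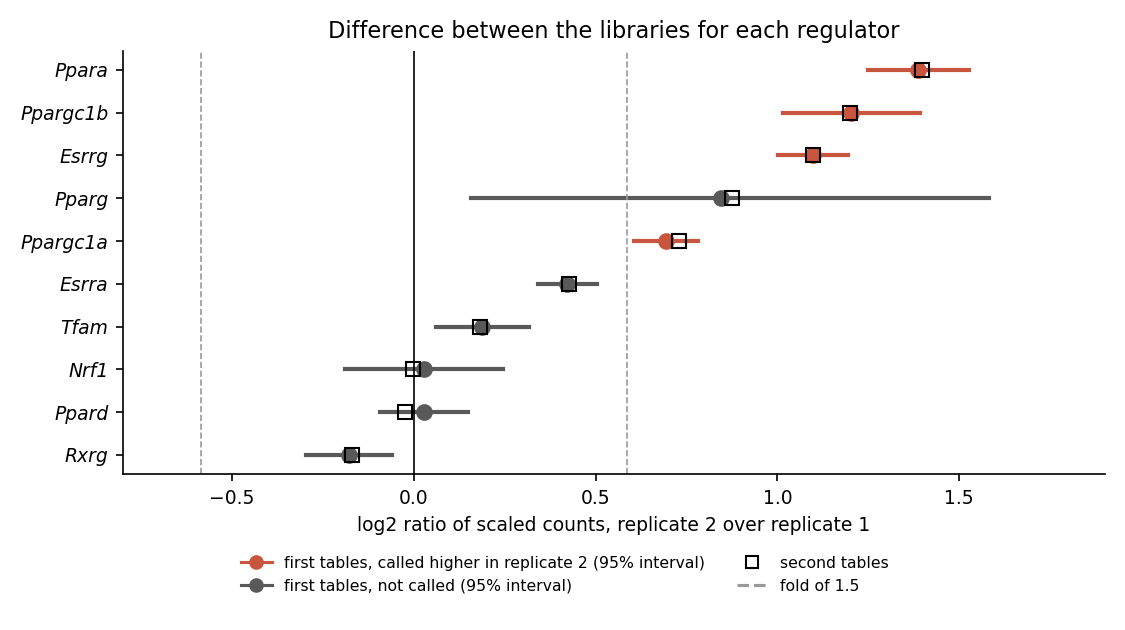
Log2 ratio of scaled counts, replicate 2 over replicate 1 (horizontal axis), for each of the 10 genes. Circles with lines are the first tables with 95% intervals for counting error, red where called, squares are the second tables, and dashed lines mark a fold of 1.5. Ppara, Ppargc1b, Esrrg and Ppargc1a lie beyond the right dashed line with their whole intervals, and Ppard and Nrf1 straddle 0.

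Markers of other cells were examined because Pparg and Ppara are also used outside fibres. The 9 white adipocyte markers summed to 13.0 TPM in replicate 1 and to 10.8 TPM in replicate 2, with 1 of 6 tested called, higher in replicate 1. The called gene was Cfd, with 142 and 77 reads and a log2 ratio of -0.83. Of the 6 tested, 5 had a log2 ratio below 0, and the median was -0.84. Adipoq, which marks fat cells, had 14 reads in replicate 1 and 6 in replicate 2 and was not called. The most abundant marker of that list, the lipase gene Lipe, was the exception among those tested, with a ratio above 0. It had 457 reads in replicate 1 and 621 in replicate 2, with a log2 ratio of 0.49 (adjusted p = 3.64e-07, exact test), below the fold required. The part of fat cells in the reads of Pparg was not tested. Of the brown fat markers, Ucp1 was listed at 0 in both libraries and Cidea, with 15 and 46 reads, was called higher in replicate 2. The 8 endothelial markers summed to 64.8 and 73.3 TPM with 1 called higher in replicate 2, and 0 of 6 macrophage markers were called. Of 4 fibro-adipogenic markers, 2 were called, both higher in replicate 1. The heart marker Myh6, a myosin close in sequence to the slow fibre marker Myh7, so that reads of the pair may be mixed, was at 42.5 TPM in replicate 1 and at 105 TPM in replicate 2, while Nppa, Nppb and Myl7 were at 0.

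Some of the genes are transcribed from more than 1 annotated start, and total RNA reads were assigned to transcripts of each. Starts within 1000 bases of each other were joined into a group. Shares below are percentages of a gene's reads, with 95% Clopper-Pearson intervals that cover counting error only and not the uncertainty of assigning reads to transcripts.

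Rxrg has an upstream start and a start 19.9 kb further in. The downstream start gives transcript Rxrg-202, which encodes a shorter protein of 340 codons than the 463 of the upstream start, and the shorter form is known from mouse heart and skeletal muscle. In the first tables the downstream start held 77.1% (74.7 to 79.4) of Rxrg reads in replicate 1 and 80.4% (77.9 to 82.7) in replicate 2. The second tables also gave it the larger part, with 53.7% and 58.4%. Both kinds of table thus put most reads on the shorter form, but the size of that share depended on the table.

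Esrrg has starts 388.8 kb apart. The downstream start (Esrrg-201 and Esrrg-202) held 83.3% (81.2 to 85.3) of its reads in replicate 1 and 84.8% (83.4 to 86.1) in replicate 2, and 76.5% and 77.5% in the second tables. By TPM, which is per length, the downstream start held 74.3% and 73.4% in the first tables but 54.2% and 58.9% in the second. The higher level of Esrrg in replicate 2 was shared by both starts, with a log2 ratio of 1.12 (1.02 to 1.23) for the downstream and 0.96 (0.72 to 1.21) for the upstream start. The tables gave opposite answers on the protein. Esrrg-201, of 458 codons, held 76.5% and 69.1% of the reads in the first tables but 9.99% and 11.5% in the second. Transcripts of 435 codons held 22.8% and 29.8% in the first tables and 88.9% and 87.7% in the second.

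Ppargc1a has a proximal start and, 13.8 kb upstream, a distal start that is known in mouse muscle for its response to exercise. The distal start (Ppargc1a-202 and Ppargc1a-204) held 9.22% (7.90 to 10.7) of Ppargc1a reads in replicate 1 and 13.2% (11.9 to 14.5) in replicate 2 in the first tables. The second tables gave 6.62% and 5.36%, which turns the direction. Shares of reads favour long transcripts, and by TPM, which is per length, the distal start held 33.1% and 44.5% in the first tables and 27.6% and 28.5% in the second. Of the distal transcripts, Ppargc1a-202 is annotated as incomplete, with 488 bases, and Ppargc1a-204 as a target of decay. No complete protein-coding transcript is annotated at the distal start, so neither kind of share measures use of that start. A shift between starts is therefore not settled. Reads assigned to transcripts of the proximal start alone were higher in replicate 2, with a log2 ratio of 0.63 (0.54 to 0.72). The full-length protein of 797 codons, from Ppargc1a-203, held 74.2% and 78.8% of the reads in the first tables and 72.8% and 75.6% in the second. Ppargc1a-205, of 696 codons, held 15% of the reads in replicate 1 and 6.20% in replicate 2, and 13.5% and 7.60% in the second tables. Short forms that end early, of the kind described in mouse muscle as PGC-1alpha4 and NT-PGC-1alpha, correspond in length to Ppargc1a-204 (266 codons) with 6.96% and 10.02% and Ppargc1a-201 (270 codons) with 1.52% and 1.83%. In the second tables these were 5.83% and 4.42%, and 7.11% and 11.5%. Both transcripts are annotated as targets of nonsense-mediated decay. Their assignment is uncertain, with 122 reads and a posterior SD of 51.5 for Ppargc1a-204 in replicate 1, and 26.6 reads and a posterior SD of 52.6 for Ppargc1a-201.

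**Figure D3:**
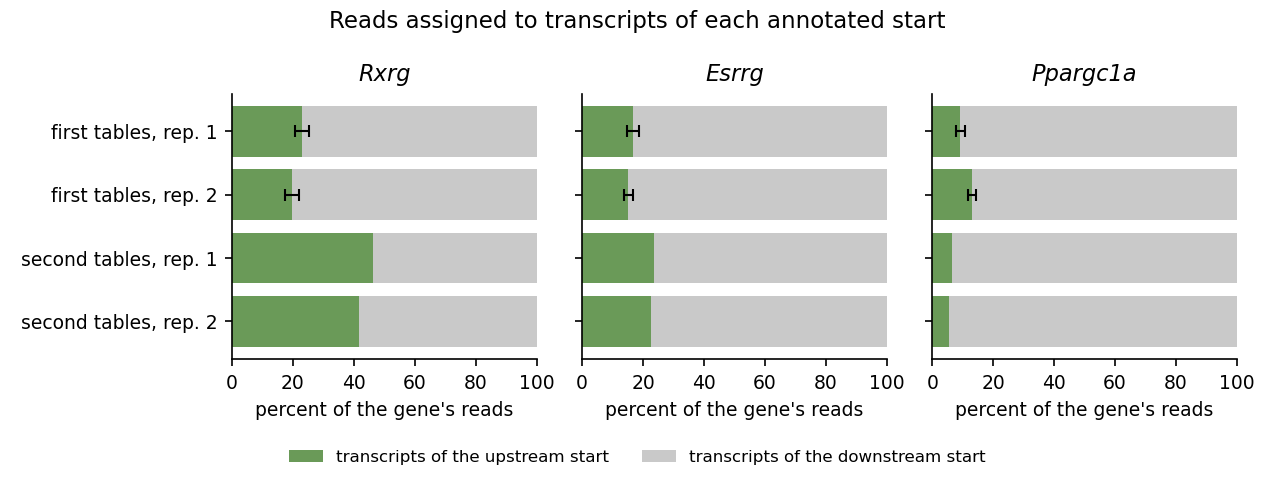
Percent of each gene's reads (horizontal axis, 0 to 100) assigned to transcripts of the upstream (green) and downstream (grey) annotated starts of Rxrg, Esrrg and Ppargc1a. Rows are the 2 libraries in each kind of table, and error bars on the first tables are 95% intervals for counting error. The downstream start holds the larger part in every row, and the tables differ most for Rxrg.

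The bases before both Rxrg starts, the compared Esrrg starts and the distal Ppargc1a start are shown because transcripts of these starts were compared above. Those of Esrra and Ppara, which each have a single main start, are added. Promoters of the proximal Ppargc1a start and of Ppargc1b are not shown. Further RefSeq starts of Esrrg, at chr1:187651758 and chr1:187652241, are not shown either. Each sequence is 250 bases of the RefSeq promoter table on GRCm38.p6, written 5′ to 3′ on the strand of the gene. It ends at the base before the RefSeq start. Capitals mark the matches to the NRF1 core GCATGCGC, the ERR and nuclear receptor core AAGGTCA, the cAMP response core ACGTCA and the MEF2 consensus, searched on both strands.
Ppargc1a distal start, chr5:51567726-51567975, minus strand: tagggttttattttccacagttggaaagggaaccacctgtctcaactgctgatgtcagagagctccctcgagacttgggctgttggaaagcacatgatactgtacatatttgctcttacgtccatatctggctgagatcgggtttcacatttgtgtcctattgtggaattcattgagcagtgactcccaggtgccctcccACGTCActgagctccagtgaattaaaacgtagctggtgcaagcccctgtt
Esrra, chr19:6921809-6922058, minus strand: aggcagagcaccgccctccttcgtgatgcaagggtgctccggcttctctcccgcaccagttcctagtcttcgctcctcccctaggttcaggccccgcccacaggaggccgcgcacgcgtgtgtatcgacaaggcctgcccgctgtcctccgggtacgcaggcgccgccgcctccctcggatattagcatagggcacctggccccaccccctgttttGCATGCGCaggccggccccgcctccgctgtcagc
Esrrg upstream start, chr1:187608756-187609005, plus strand: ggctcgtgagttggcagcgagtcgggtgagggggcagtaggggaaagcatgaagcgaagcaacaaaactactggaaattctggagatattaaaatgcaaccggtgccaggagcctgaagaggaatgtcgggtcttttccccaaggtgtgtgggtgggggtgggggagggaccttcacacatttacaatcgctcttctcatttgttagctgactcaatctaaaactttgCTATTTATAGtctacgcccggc
Esrrg downstream start, chr1:187997577-187997826, plus strand: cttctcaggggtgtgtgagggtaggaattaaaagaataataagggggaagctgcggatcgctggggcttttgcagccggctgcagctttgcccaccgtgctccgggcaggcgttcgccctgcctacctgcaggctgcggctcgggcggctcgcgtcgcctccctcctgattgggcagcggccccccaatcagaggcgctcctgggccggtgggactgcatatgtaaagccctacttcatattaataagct
Ppara, chr15:85735526-85735775, plus strand: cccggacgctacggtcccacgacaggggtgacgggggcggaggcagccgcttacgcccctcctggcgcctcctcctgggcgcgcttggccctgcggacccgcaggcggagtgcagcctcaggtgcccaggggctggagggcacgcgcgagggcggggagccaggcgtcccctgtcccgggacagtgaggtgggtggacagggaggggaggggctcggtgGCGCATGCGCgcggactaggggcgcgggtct
Rxrg upstream start, chr1:167598112-167598361, plus strand: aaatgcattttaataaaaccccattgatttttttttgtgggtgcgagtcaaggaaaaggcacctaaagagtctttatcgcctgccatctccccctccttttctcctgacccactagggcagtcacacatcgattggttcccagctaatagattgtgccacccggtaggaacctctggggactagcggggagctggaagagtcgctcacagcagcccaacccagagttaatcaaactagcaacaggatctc
Rxrg downstream start, chr1:167618015-167618264, plus strand: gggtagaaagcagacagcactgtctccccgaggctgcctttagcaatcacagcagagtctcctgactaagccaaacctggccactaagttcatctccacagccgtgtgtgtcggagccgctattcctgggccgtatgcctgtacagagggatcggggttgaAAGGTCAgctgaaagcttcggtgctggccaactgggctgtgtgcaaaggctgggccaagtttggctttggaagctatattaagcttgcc

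Both Rxrg promoters differ in these letters, as do the Esrrg promoters shown. The downstream Rxrg start carries AAGGTCA with its first base at -89 from the RefSeq start, and the upstream one carries none of the motifs searched. The upstream Esrrg start carries the MEF2 consensus at -22, which overlaps a TATAAA match at -19 on the other strand, and the downstream start carries only a GGGCGG box, at -108. Esrra carries the NRF1 core at -34, Ppara carries it at -31 and -29 on opposite strands as overlapping copies, and the distal Ppargc1a start carries ACGTCA at -50. The table held promoters for 9 of the 10 genes, at 16 starts.

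Over all 32817 promoters of the table and the same 250 bases, the NRF1 core was found in 2.25%, AAGGTCA in 4.08%, ACGTCA in 6.46%, the MEF2 consensus in 2.92%, TATAAA in 12.4% and GGGCGG in 32.7%. The longer ERR element TCAAGGTCA was found in 0.387% and in none of the 16 starts of these genes, which says only that these letters are not in those windows. Of the 16 starts, 2 held the NRF1 core, 1 AAGGTCA, 1 ACGTCA, 2 the MEF2 consensus, 3 TATAAA and 9 GGGCGG. A match is a description of the letters and not evidence of binding.

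For most of the remaining genes, most reads were assigned to transcripts of 1 group of starts. Ppard had 96.5% and 96.7% of its reads on a single group of starts, and Tfam 97.7% and 99.4%. In the second tables these were 95.9% and 97.2% for Ppard and 100% and 95.9% for Tfam. The main Nrf1 group held 88.0% and 93.6% of its reads in the first tables. In the second tables it held 85.4% and 79.1%, which turns the direction. Esrra-201, of 422 codons, held 95.8% and 96.1% of Esrra reads in the first tables and 93.7% and 92.1% in the second. Transcripts encoding the 468 codons of Ppara held 99.6% and 98.9% of its reads, and the 440 codons of Ppard-201 held 86.8% and 88.4%. For Ppargc1b the tables differed, since the form of 1014 codons held 96.2% and 96.1% in the first tables but 64.2% and 54.1% in the second. The form of 1030 codons held 0% and 2.53% in the first tables and 35.85% and 45.94% in the second. Noncoding Ppargc1b-203, of 366 bases, held 3.76% and 1.35% of the reads in the first tables and 0% in the second. By TPM it held 34.2% and 15.5% in the first tables. Tfam-201, of 243 codons, held 77.1% and 72.0% of Tfam reads in the first tables and 77.5% and 73.3% in the second. Tfam-202, of 215 codons, took 13.6% and 24.1% in the first tables, while the second gave it 0.234% and 4.83%. Tfam-203, of 199 codons, took 0% and 0.51% in the first tables and 22.3% and 17.8% in the second. By TPM, per length, Tfam-201 held 30.5% and 28.4% in the first tables, where Tfam-202 led with 32.1% and 57.0%. In the second tables it held 33.3% and 24.7%, and Tfam-203 led with 65.9% and 40.9%. Pparg had too few reads for its starts to be compared.

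Overlapping genes could add reads to the 10. Trmt112, on the opposite strand across the end of Esrra, had 345 and 374 reads beside the 2215 and 2870 of Esrra, and the sources used here do not state whether strand was used in counting. No other gene on the opposite strand that overlapped the 10 had more than 2 reads in a library. Mir378a, a microRNA gene inside Ppargc1b, was listed at 0 reads in both libraries. For each of the 10, the transcript with most reads was searched against all other genes. No stretch of at least 100 bases with at least 90% identity was found. The other transcripts of the 10 were not searched.

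Among 49 nuclear receptors of the mouse, the levels place these genes as follows. Nr1d1, a clock repressor, had the highest mean level at 56.5 ± 4.24 TPM (SD, n = 2). It was followed by Nr4a1, a receptor induced by nerve and exercise signals, at 51.4 ± 6.40 TPM, Rxra at 45.8 ± 1.98 TPM and Rora at 39.3 ± 6.58 TPM (SD, n = 2 each). Esrra ranked 7, Rxrg 10, Esrrg 13, Ppard 15, Ppara 17 and Pparg 31 by mean TPM. Rxra, the widely expressed partner, was 2.06-fold above Rxrg in replicate 1 and 2.25-fold in replicate 2. Of the 34 receptors tested, 3 were called higher in replicate 2 and 1 higher in replicate 1, beside 4.1% and 2.7% of all genes tested, and 9 of the 49 were listed at 0 reads in both libraries. The receptors called higher were Ppara, Esrrg and Esrrb, the third ERR, which was at 2.13 TPM in replicate 1 and at 5.13 TPM in replicate 2 (log2 ratio 1.33; adjusted p = 2.65e-39, exact test). Nr4a3, another receptor induced by exercise, was at 5.57 TPM in replicate 1 and at 3.17 TPM in replicate 2 (log2 ratio -0.96; adjusted p = 1.03e-33, exact test). The median log2 ratio of the receptors tested was -0.06.

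Genes around the 10 were taken from lists of known partners, upstream regulators and targets. The lists were written with earlier results of these data known, and 7 genes stand in more than 1 of them: Perm1, Acadm, Cox5b, Cycs, Polrmt, Tfb1m and Tfb2m. Levels are in TPM, and folds and log2 ratios are those of scaled counts, so a fold can differ somewhat from the quotient of the TPM values. For each list the counts of called genes and the median log2 ratio are given beside 4.1% of all genes called higher in replicate 2 and a median of 0.0013 over all genes.

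Of 20 partners and cofactors, 2 were called higher in replicate 2 and 0 in replicate 1, and the median log2 ratio was 0.0025. The called genes were Esrrb and Perm1, a muscle protein induced by PGC-1 and ERR, which was at 55.8 TPM in replicate 1 and at 95.2 TPM in replicate 2 (1.76-fold by scaled counts). The most abundant partner, Lpin1, a phosphatase that also acts as a PGC-1alpha cofactor, was at 155 TPM and 137 TPM and was not called. Of 20 upstream regulators of PGC-1alpha, 0 were called in either direction by the exact test, and the median log2 ratio was -0.05. At the adjusted p alone 7 passed, 6 of them higher in replicate 1 and 1 higher in replicate 2, beside 11.5% and 14.3% of all genes tested. Mef2c and Mef2d, transcription factors that bind the Ppargc1a promoter in mouse muscle, were at 139 and 135 TPM and at 72.1 and 70.6 TPM. Prkab2, a subunit of the energy sensor AMPK, was at 95.4 and 70.8 TPM (log2 ratio -0.38). The AMPK subunit Prkag3, singled out after its value was seen, came nearest to a call with a log2 ratio of -0.58, a fold of 1.49 towards replicate 1.

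Of 24 PPAR targets, 18 were called higher in replicate 2 and none in the other direction. Their log2 ratios had a median of 0.82. Their summed level was 1567 TPM in replicate 1 against 3057 TPM in replicate 2. Fabp3, which carries fatty acids in the cytoplasm, was at 216 TPM in replicate 1 and at 664 TPM in replicate 2 (3.18-fold by scaled counts). Lpl, the lipase that releases fatty acids from blood lipids, was at 124 TPM and 342 TPM (2.89-fold by scaled counts). Plin5, a coat protein of lipid droplets, was at 8.98 TPM and 26.0 TPM (2.99-fold by scaled counts). Pdk4, the kinase that shuts off pyruvate oxidation, was at 190 TPM and 310 TPM (1.67-fold by scaled counts). Among the 6 targets not called, the log2 ratio was 0.44 for Cpt1b, which brings fatty acids into mitochondria, 0.58 for the lipid droplet protein Plin2 and -0.09 for the uncoupling protein Ucp3.

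Of 20 ERR targets, 5 were called, each with more RNA in replicate 2, and the log2 ratios had a median of 0.34. All 20 passed in the direction of replicate 2 at the adjusted p alone, by which 14.3% of all genes tested were higher in replicate 2. Mb, the oxygen store myoglobin, was at 1212 TPM in replicate 1 and at 2431 TPM in replicate 2 (2.09-fold by scaled counts), and Ckmt2, the mitochondrial creatine kinase, at 408 TPM and 734 TPM (1.86-fold by scaled counts). The abundant subunit Atp5b of ATP synthase was at 1264 TPM and 1596 TPM (1.28-fold by scaled counts), below the fold required. Slc25a4, which exchanges ADP and ATP across the inner membrane, was at 1073 TPM and 1198 TPM.

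Of 13 NRF1 targets, 0 were called by the exact test in either direction and 7 passed at the adjusted p alone, 6 of them higher in replicate 2, beside 25.8% of all genes tested in either direction and 14.3% higher in replicate 2. The median of their log2 ratios was 0.14. The cytochrome oxidase subunit Cox4i1 was at 539 TPM in replicate 1 and at 684 TPM in replicate 2 (1.29-fold by scaled counts). Of 18 genes for replication and expression of mitochondrial DNA, 0 were called by the exact test in either direction, 5 passed at the adjusted p alone, all higher in replicate 2, and the median log2 ratio was 0.11. Slirp, an RNA-binding protein of mitochondria, was at 55.2 TPM and 55.3 TPM, and its partner Lrpprc at 24.2 TPM and 27.9 TPM.

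**Figure D4:**
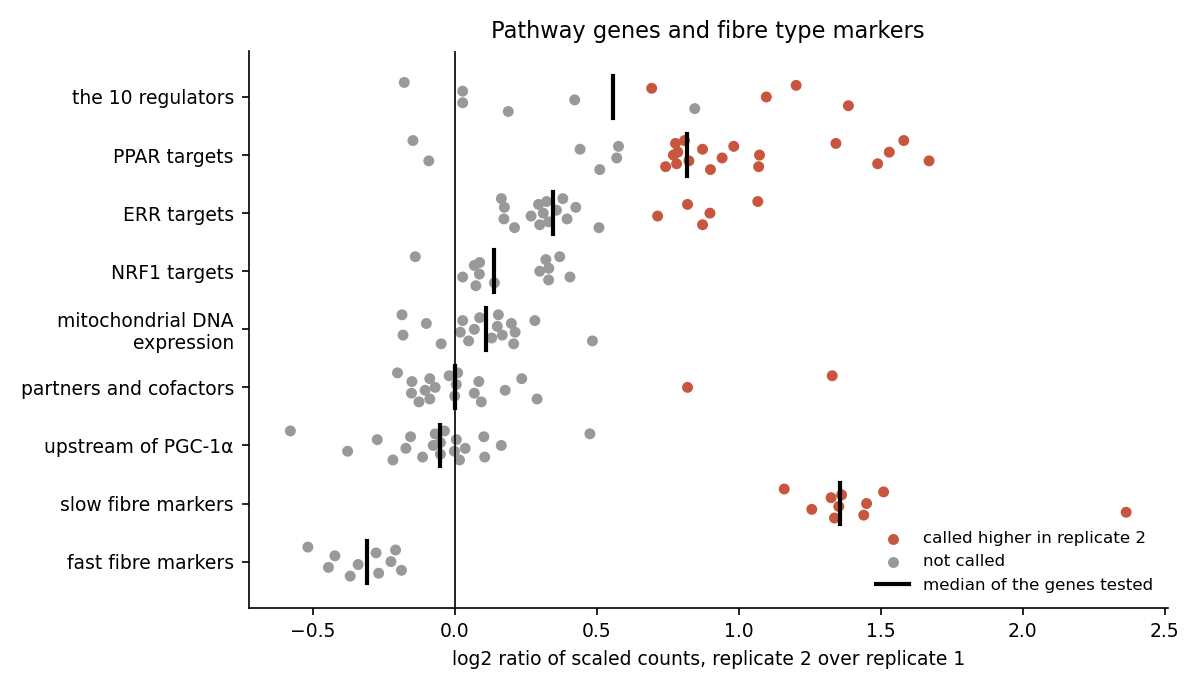
Log2 ratio of scaled counts, replicate 2 over replicate 1 (horizontal axis), for the 10 genes and for each list, with 1 point per gene tested and a bar at the median. Red points were called higher in replicate 2 and grey points were not called. The median is 0.82 for PPAR targets, 0.34 for ERR targets, 0.14 for NRF1 targets, 1.36 for slow fibre markers and -0.31 for fast fibre markers.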

How the data were processed

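Total RNA was sequenced from 2 libraries of 1 group, each made with 300 ng of input and ERCC spike-ins. The authors deposited a gene and a transcript table per library (first tables) with expected counts, TPM, the transcript's percent of its gene's TPM, and scores for the posterior mean TPM, the posterior standard deviation and interval bounds, per the file headers. They also deposited a transcript table with estimated counts and TPM (second tables). The deposited notes give mm10 and GENCODE M21; programs and versions: not given in the sources used here. Reads were assigned to a reference of 1 parental type, and the alleles were not separated.

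Expected counts totalled 42925570 and 42467674, so a count of 0 allows 3 reads, or 0.0699 and 0.0706 CPM. Counts were rounded, scaled by TMM (edgeR 4.0.16, R 4.3.3), and tested where their sum was at least 20. With 1 group, an edgeR quasi-likelihood test was not possible. Ratios are replicate 2 over replicate 1 with 0.5 added, with Clopper-Pearson intervals at 95%, which cover counting error only; reads are not independent molecules. P-values measure the difference of these libraries, which may be technical. Transcript and protein lengths come from GENCODE M21. Scripts were tested on simulated data.

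The members and lists were chosen with earlier results of these data known. Named genes are the 10 members, the 3 most abundant and the 2 most different called genes per list in each direction, the 5 most abundant and all called nuclear receptors, and transcripts with at least 10% of a gene's TPM; shorter lists of names and other genes named were chosen after their values were seen. Some genes that these rules name are not reported here. Alternatives changed the scaling, filter, kind of count, added count, call rule, TPM source and library.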

Additional observations from a re-analysis of the deposited data

How the results depend on the processing

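The count of 4 genes of the set called higher in replicate 2 was 5 with ERCC totals and with the second tables, where Pparg was added, 6 at the adjusted p alone and 3 at a fold of at least 2, where Ppargc1a (log2 ratio 0.69) was lost. The count higher in replicate 1 was 0 except at the adjusted p alone, where it was 1 (Rxrg). Over all genes, 608 calls higher in replicate 2 and 400 higher in replicate 1 became 378 and 166 with a summed count of at least 200, 2114 and 1711 at the adjusted p alone, and 269 and 186 at a fold of at least 2. The log2 ratio of Ppard turned to -0.0056 with library totals and -0.0235 in the second tables, and that of Nrf1 to -0.0056 and -0.0033, all within counting error. Ppara, Ppargc1b and Esrrg were called under all 10 alternatives. Of 99 ratios recomputed for the set, 89 kept direction and call. Tfam and Rxrg, which passed at the adjusted p alone, did not pass under every alternative. Their highest adjusted p was 0.061 for Tfam and 0.109 for Rxrg (exact test). No scaling moved the median of all genes by more than 0.0514 on the log2 scale. The summed level of 139.4 TPM became 205.4 TPM in the second tables and 351.7 TPM when rescaled over nuclear protein-coding genes, and ran from 119.7 to 159 TPM when a library was left out. Of 340 list counts, 29 changed by more than 1.5 times, most at the other call rules. The upstream regulators gained 1 call towards replicate 1 with DESeq2 size factors, library totals and the second tables. Shares of transcripts depended on the kind of table, and the cause was not tested. No paired analysis was possible because there is 1 group. No ratio can be had without either library, and depth limits Pparg most.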

Other observations

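The same-strand loci Gm42614, Gm42615 and Gm43605, annotated inside the span of Ppargc1a, had 5 and 15, 10 and 20, and 22 and 24 reads in replicate 1 and replicate 2. Gm38315, inside Esrrg on the same strand, had 0 and 8 reads. Prdx5, which lies within 1000 bases of the end of Esrra and encodes a mitochondrial peroxidase, was at 69.5 TPM in replicate 1 and at 98.5 TPM in replicate 2, a log2 ratio of 0.40 beside the 0.42 of Esrra.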
